A study of Homo sapiens with 6 samples.

Results

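The nuclear-coded subunits of the mitochondrial respiratory chain and ATP synthase were examined in HK-2 cells, a human line of immortalized epithelial cells from the proximal tubule. The members were the entries whose gene symbol begins with NDUFA, NDUFB, NDUFC, NDUFS, NDUFV, UQCR or ATP5, the genes SDHA to SDHD, and the COX4 to COX8 genes, without assembly factors, pseudogenes and antisense entries. The rule used names only and no measured value. It found 108 of 38648 listed rows, which belong to 90 of 34644 gene symbols. Complex I had 38 of these symbols, complex II 4, complex III 9, complex IV 19 and complex V 20, with NDUFA4 counted in complex IV, where its protein resides. The readthrough entries NDUFC2-KCTD14 and ATP5MF-PTCD1, the single-exon relative UQCRHL and the inhibitor ATP5IF1 match these names and are counted as subunits here. Bulk RNA-seq had been performed on 6 libraries in 2 groups, both of which had been irradiated with 8 Gy of X-rays and collected 7 days later. The cells of one group carried a negative control lentivirus (IR+NC-LV, the control libraries, n = 3), and those of the other a lentivirus that overexpresses PRDM16 (IR+PR-LV, the PRDM16 libraries, n = 3), a transcriptional regulator of the PRDM family. Both viruses were followed by puromycin selection, and neither unirradiated cells nor cells without virus were among these libraries. Nothing in the labels says that the 3 libraries of a group came from separate cultures, so p-values measure the spread between these samples, which may be technical.

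Complexes I and II pass electrons from NADH and succinate to ubiquinone, complex III passes them on to cytochrome c, and complex IV to oxygen. Complexes I, III and IV pump protons across the inner mitochondrial membrane, and complex V, the ATP synthase, lets them flow back while it makes ATP. Each complex except complex II combines nuclear-coded subunits with a few that are coded in the mitochondrial genome. Proximal tubule cells are rich in mitochondria and depend on this pathway to reabsorb solutes. The mitochondrially coded subunits were not analysed here, since 0 of the 13 are listed in these files.

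The library totals ranged from 13407074 to 28540041 counts, and the 90 subunits took between 0.635% and 0.722% of them. PRDM16 had 2, 0 and 1 counts in the control libraries and 14, 10 and 8 counts with the PRDM16 lentivirus, so the groups did not overlap in the direction of the labels. These are few counts for libraries of this depth. The degree of overexpression therefore cannot be judged from them. Of the epithelial markers, KRT8 (834 TPM), KRT18 (632 TPM) and KRT19 (553 TPM) were high, while CDH1 was at 0.419 TPM. TPM is the count per base of a gene's exons, scaled so that all libraries have one common sum, and is the unit used here to compare levels between genes. Of 11 proximal tubule markers, 4 reached 1 TPM, among them PAX8 (138 TPM) and GGT1 (69.9 TPM). The defining transporters of the differentiated tubule were at or near 0, with LRP2 at 0.00468 TPM, SLC22A6 at 0.0193 TPM and SLC22A8 at 0.00851 TPM. The 4 endothelial markers summed to between 0.319 and 0.587 TPM in all libraries, the 4 leukocyte markers to between 3.79 and 6.28 TPM, and the 5 fibroblast markers to between 10.1 and 15.3 TPM.

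A sequence feature that the rule did not use was the presence of 3 short motifs in the promoters. NRF1 and GABPA are transcription factors with known sites in respiratory chain genes, and YY1 is a factor often found at the start of housekeeping genes. Promoter sequences from RefSeq (GRCh38.p14, 250 bases before to 50 after the transcription start) were matched by symbol for 71 of the 90 subunits. The letters searched on both strands were CGCATGCG for NRF1, CCGGAAGTG for GABPA and AAGATGGCG for YY1. The NRF1 letters were present in 10 of 71 subunit promoters (14.1%), against 2.19% of all 27305 promoters in the table. The GABPA letters were present in 4 (5.63%, against 2.5%) and the YY1 letters in 8 (11.3%, against 1.85%). At least 1 of the 3 was present in 20 (28.2%), against 6.19% of all promoters. Limited to the 15843 promoters of coding genes, that share was 8.67%, with 2.88% for NRF1, 3.55% for GABPA and 2.74% for YY1. The YY1 letters lay after the transcription start, on the strand of the gene, in 7 of the 8 subunit promoters and in 290 of the 505 promoters of the whole table that held them. A match describes the sequence and does not show that a factor is bound there.

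5 of these promoters are printed because they show where the letters lie in subunits of complexes I to V. The capitals mark the motif, each stretch runs 5′ to 3′ along the strand of the gene, and positions are counted from the transcription start.
ATP5PF, chr21:25735055-25735204, minus strand, bases -150 to -1, NRF1 from -119 and YY1 from -57: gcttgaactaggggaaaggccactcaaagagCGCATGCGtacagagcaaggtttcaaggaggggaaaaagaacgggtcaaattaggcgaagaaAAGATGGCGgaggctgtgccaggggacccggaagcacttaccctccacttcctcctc
COX6A1, chr12:120437863-120438013, plus strand, bases -250 to -100, NRF1 from -219: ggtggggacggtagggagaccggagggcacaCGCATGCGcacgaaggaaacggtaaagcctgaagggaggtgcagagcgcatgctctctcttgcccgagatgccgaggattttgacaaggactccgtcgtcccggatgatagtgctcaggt
UQCRH, chr1:46303548-46303697, plus strand, bases -150 to -1, GABPA from -48 on the other strand: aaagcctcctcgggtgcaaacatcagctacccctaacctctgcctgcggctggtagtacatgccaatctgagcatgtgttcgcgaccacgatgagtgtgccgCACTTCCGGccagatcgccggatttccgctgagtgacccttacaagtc
SDHB, chr1:17054003-17054152, minus strand, bases -120 to 30, YY1 from 11: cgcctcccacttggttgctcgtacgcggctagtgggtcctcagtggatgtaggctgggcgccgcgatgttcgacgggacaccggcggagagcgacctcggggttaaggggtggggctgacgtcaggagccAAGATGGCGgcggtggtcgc
NDUFS7, chr19:1383807-1383936, plus strand, bases -100 to 30, NRF1 from -74 and YY1 from 18: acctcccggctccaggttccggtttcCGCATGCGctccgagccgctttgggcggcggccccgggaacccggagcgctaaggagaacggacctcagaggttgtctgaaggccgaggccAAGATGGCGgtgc
The ATP5PF promoter is shared with GABPA itself, which is transcribed in the opposite direction, and 23.1% of the exon bases of ATP5PF overlap exons of GABPA on the other strand. Its positions are counted from the start in the RefSeq promoter set. The counted ATP5PF row extends further upstream, to base 25735653, so the printed stretch lies within the span of that row.

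The groups were compared to ask whether the subunits differed after irradiation between cells with the PRDM16 lentivirus and cells with the control virus. None of the 81 subunits that passed the filter on low counts passed the threshold of an adjusted p-value under 0.05 in edgeR's quasi-likelihood test, where 0.0652% of all 15340 tested genes and gene copies did. With p-values under 0.05 before adjustment, 3 subunits were higher in IR+PR-LV, as were 4.55% of all tested genes, and 1 was lower, as were 5.97%. DESeq2 gave 0 past the threshold and 7 of 88 at an unadjusted p-value under 0.05, where 4.71% of all its genes were. The median log2 fold change of the 81 was -0.0144 (36 higher, 45 lower), and that of all tested genes was 0.00444. The 95% interval of the log2 fold change lay within ±0.5 for 65 of the 81 subunits and within ±1 for 73, so a difference of 2-fold or more was outside the interval for most of them. The CPM values (counts relative to the normalized library total) of the 2 groups did not overlap for 7 of the 81 subunits (8.64%), against 17% of all tested genes. In bulk RNA, fewer cells of a kind and less RNA per cell cannot be told apart.

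**Figure D1:**
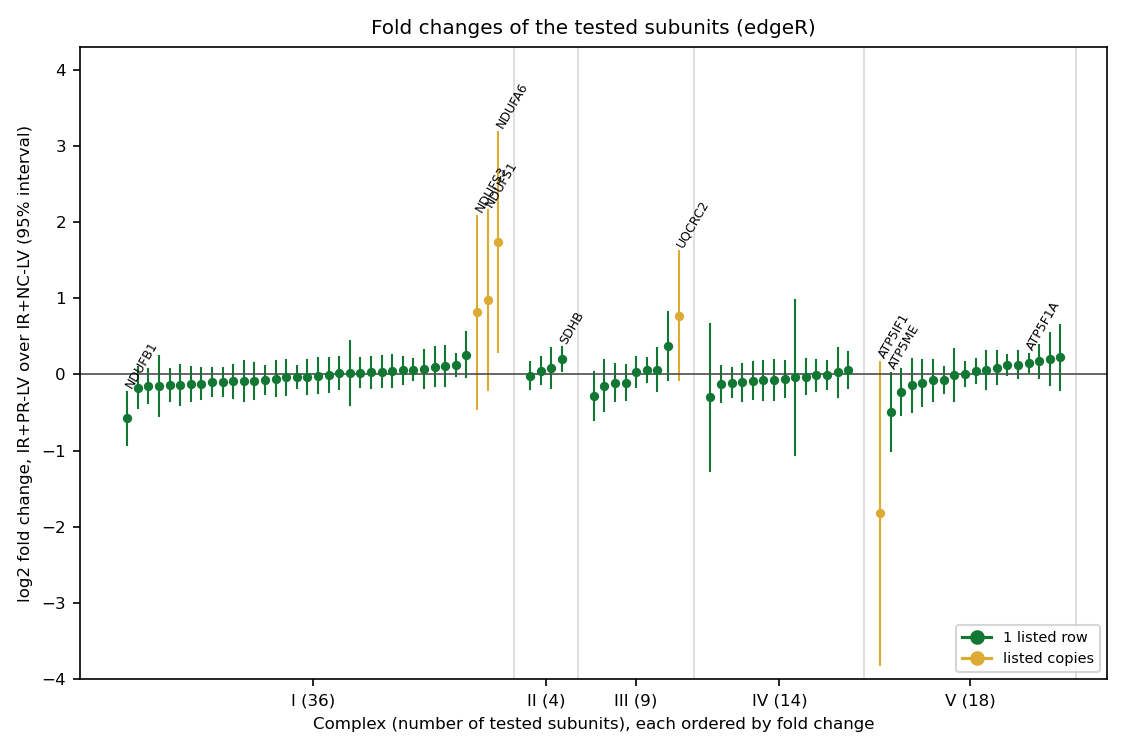
Each point is 1 of the 81 tested subunits, with its log2 fold change (IR+PR-LV over IR+NC-LV) from edgeR on the vertical axis and its 95% interval as a bar, ordered within each complex. Most subunits listed once sit close to 0 with short bars, and those with listed copies, in yellow, have wide ones, as do COX6A2 and COX6B2, which had few counts.

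With no filter on low counts, 4 subunits passed the threshold (NDUFB1, NDUFA6, NDUFS1 and ATP5IF1), against 1.19% of all 28831 genes then tested. Of these, NDUFA6, NDUFS1 and ATP5IF1 are listed with copies and are described with the other such subunits. The counts also depended on 1 library. Without IR+NC-LV replicate 3, 26 of 81 subunits had an unadjusted p-value under 0.05, of which 22 were lower in IR+PR-LV, where 5.01% of all genes were, and 4 were higher, where 4.07% were. None of them passed the threshold there, and the median log2 fold change was -0.0966. Leaving out replicate 1 of IR+PR-LV gave 12 of 82 subunits at that level, against 16.4% of all genes, and leaving out its replicate 2 gave 2 of 82, against 6.06%.

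The subunits as a class were among the more abundant transcripts of these cells. Of the 90, 48 had a mean of at least 100 TPM, and the median of the tested subunits was 141 TPM, against 16.3 TPM for all tested genes. 14 subunits were under 10 TPM, of which 4 are listed with copies. ATP5F1B, the catalytic beta subunit of complex V, was the highest at 1556 TPM, followed by COX6A1 of complex IV at 1363 TPM and NDUFS5 of complex I at 942 TPM. The plot of levels shows a wide range within each complex in deposited TPM. Part of the order within a complex rests on the length used for the TPM, which is the union of all exons of a gene. SDHC has 13469 such bases, 29.3 times the median length of its coding transcripts in GENCODE release 29, and UQCRB has 8863 against 645. After rescaling to the GENCODE length, SDHC moved from 29.7 to 870 TPM and UQCRB from 76.9 to 1056 TPM, while ATP5F1B (1488 TPM) and COX6A1 (1279 TPM) remained first and second.

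**Figure D2:**
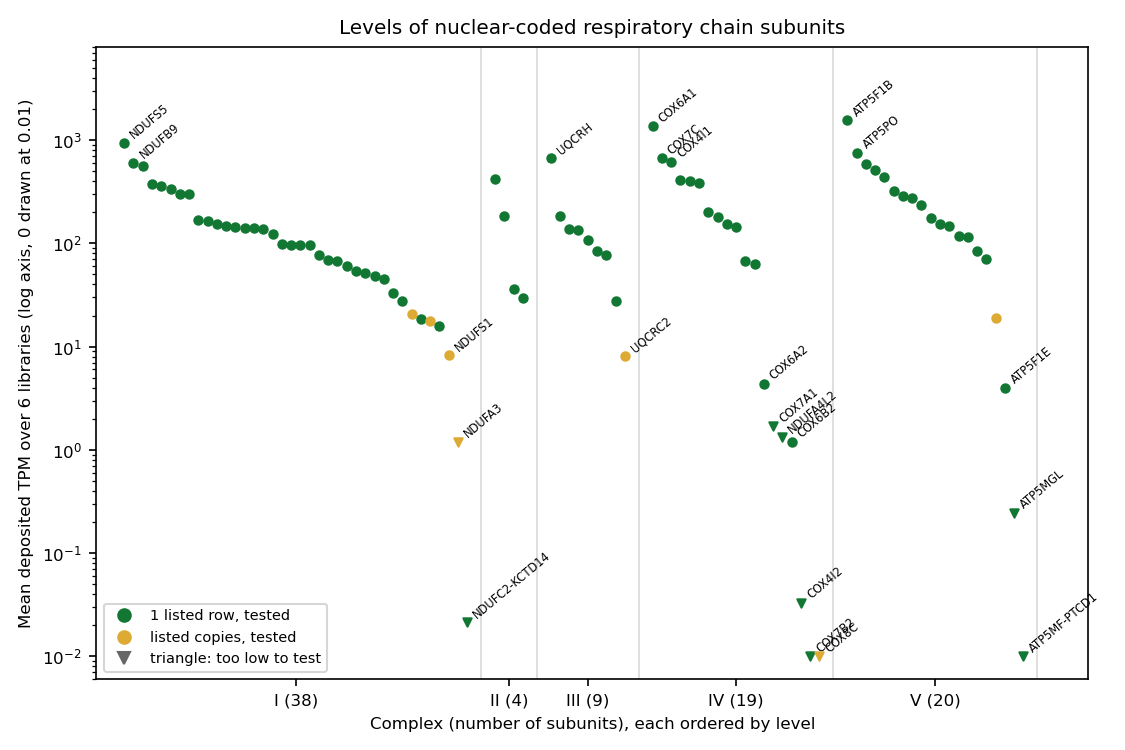
Each point is 1 of the 90 subunits, with its mean deposited TPM over the 6 libraries on a log axis, ordered by level within each complex. Circles are tested subunits, triangles those too low to test, and yellow marks subunits with listed copies. ATP5F1B and COX6A1 are at the top, and the isoforms COX4I2, COX7B2 and COX8C are at the bottom of complex IV.

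Complex I had the most subunits. 36 of its 38 symbols were tested, and IR+PR-LV was higher for 16 and lower for 20, with a median log2 fold change of -0.0249. Its summed level was 6312 ± 431 TPM (SD, n = 3) in the control libraries and 5902 ± 74.6 TPM (SD, n = 3) in the PRDM16 libraries. The IR+NC-LV libraries summed to 6498, 6619 and 5819 TPM and the PRDM16 libraries to 5932, 5957 and 5817 TPM, so that the groups overlapped through IR+NC-LV replicate 3. The 7 core subunits, among them those that carry the flavin and the iron-sulfur clusters, summed to 507 ± 15.5 TPM and 515 ± 27.6 TPM (SD, n = 3 each). The 30 accessory subunits, which surround them, held the rest, with 5805 ± 445 TPM against 5387 ± 48.8 TPM (SD, n = 3 each). Both sums include subunits listed with copies, whose levels are uncertain. These are NDUFS1 and NDUFS3 in the core and NDUFA3 and NDUFA6 among the accessory subunits.

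NDUFB1, an accessory subunit in the membrane arm (chr14:92116123-92121706, minus strand, 317 exon bases), had the lowest p-value of all subunits. Its level was 14.7, 16.9 and 11.4 CPM in the control libraries and 10.2, 10.2 and 8.59 CPM in the PRDM16 libraries. Every IR+PR-LV library was below every IR+NC-LV library, with the smallest gap to IR+NC-LV replicate 3. The log2 fold change was -0.57 (standard error 0.15, unadjusted p = 0.00461, adjusted p = 0.264 in edgeR's quasi-likelihood test). With no filter on low counts its adjusted p-value was 0.0297 and its log2 fold change -0.57 in the same test. NDUFS5, the most abundant accessory subunit (chr1:39026350-39034615), had 158, 162 and 122 CPM in the control libraries and 128, 143 and 145 CPM in the PRDM16 libraries, and the groups overlapped. NDUFB9, the accessory subunit with the next highest level (602 TPM), had 132, 134 and 121 CPM against 131, 124 and 122.8 CPM, and its groups overlapped as well. NDUFA10 (69.6 ± 0.370 CPM and 72.8 ± 1.71 CPM, SD, n = 3 each) did not overlap between the groups, and its log2 difference was 0.06 (standard error 0.06).

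Complex II, succinate dehydrogenase, consists of 4 subunits that are all coded in the nucleus. Its summed level was 648, 665 and 614 TPM in the control libraries and 660, 714 and 713 TPM in the PRDM16 libraries, or 642 ± 25.7 and 696 ± 30.7 TPM (SD, n = 3 each). IR+NC-LV replicate 2 lay above IR+PR-LV replicate 1, and the other libraries were separated by group. SDHB, the iron-sulfur subunit (chr1:17018722-17054032, minus strand), had 121, 130 and 112 CPM in the control libraries and 137, 143 and 138 CPM in the PRDM16 libraries. Its groups did not overlap, and the log2 fold change was 0.20 (standard error 0.07, unadjusted p = 0.0153, adjusted p = 0.379 in edgeR's quasi-likelihood test). SDHA, the flavoprotein that oxidizes succinate, had 101, 105 and 91.2 CPM in the control libraries and 105, 98.2 and 91.8 CPM in the PRDM16 libraries, with overlapping groups. The membrane anchors SDHC and SDHD had log2 fold changes of 0.05 (standard error 0.08) and 0.08 (standard error 0.11). In deposited TPM the order was SDHB (418), SDHD (185), SDHA (36.0) and SDHC (29.7). After rescaling to the GENCODE lengths SDHC came first (870 TPM), so the order of levels in this complex depends on the gene length.

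Complex III had 9 symbols, all tested, of which 5 were higher and 4 lower, with a median log2 fold change of 0.0314. That median was -0.0868 without IR+NC-LV replicate 3. Its summed level was 1450 ± 171 TPM in the control libraries and 1416 ± 20.8 TPM in the PRDM16 libraries (SD, n = 3 each). UQCRH, the hinge protein near the cytochrome c site (chr1:46303698-46316776), was the most abundant at 671 TPM and had 152, 155 and 107 CPM in the control libraries and 139, 150 and 144 CPM in the PRDM16 libraries. The low value of IR+NC-LV replicate 3 set the spread of the control group. UQCRHL, its single-exon relative (chr1:15807162-15807699), had 4.65, 4.37 and 2.81 CPM in the control libraries and 5.66, 5.08 and 4.78 CPM in the PRDM16 libraries. These groups did not overlap, and the fitted log2 difference was 0.38 (standard error 0.20, adjusted p = 0.545 in edgeR's quasi-likelihood test). Of the 100-base stretches of UQCRH, 84.4% occur in no other annotated gene and the rest are shared with UQCRHL, so reads could have been assigned to either. UQCRC1, a core protein and the second most abundant of the 9 symbols at 183.2 TPM, had 109.5, 109.5 and 106 CPM against 119, 115 and 103 CPM, and its groups overlapped. Cytochrome c1 (CYC1, 183.4 TPM), also part of complex III, is outside the naming rule. It is therefore not in the count, sum and order given here. UQCR10 had the largest negative value, with 48.4, 50.5 and 33.7 CPM against 34.3, 38.5 and 36.6 CPM, and its groups overlapped. The Rieske iron-sulfur protein UQCRFS1, which takes electrons from ubiquinol, was at 0.03 on the log2 scale (standard error 0.09).

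In complex IV, 14 of 19 symbols were tested, and 12 of the 14 were lower in IR+PR-LV, with a median log2 fold change of -0.0674. None of the 14 had an unadjusted p-value under 0.05 or groups that did not overlap. The number lower was 12 under RLE and 12 under upper-quartile normalization, 10 with the length trend removed, and between 7 (without IR+NC-LV replicate 2) and 13 (without IR+NC-LV replicate 3) when 1 library was left out. Its summed level was 4992, 5089 and 4329 TPM in the control libraries and 4659, 4466 and 4547 TPM in the PRDM16 libraries. IR+NC-LV replicate 3 was the lowest of the 6 libraries, and the other control libraries were above all IR+PR-LV libraries. COX6A1 (chr12:120438113-120440730) had 225 ± 25.3 CPM in the control libraries and 224 ± 2.97 CPM in the PRDM16 libraries (SD, n = 3 each). Only 66.2% of its 100-base stretches occur in no other annotated gene, and the rest are shared with COX6A1P2 and another entry. COX7C had 142, 151 and 110 CPM in the control libraries and 130, 119 and 127 CPM in the PRDM16 libraries. COX4I1, a subunit that regulates the enzyme through ATP binding, had 240, 244 and 210 CPM in the control libraries and 278, 237 and 207 CPM in the PRDM16 libraries, so that the groups overlapped throughout.

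Several complex IV subunits exist as a ubiquitous form and a form used in muscle, testis, lung or low oxygen, and HK-2 cells used the ubiquitous forms. COX4I2, the lung and hypoxia form, had 1 count in the 6 libraries, against 620 TPM for COX4I1. The testis form COX7B2 had 0 of 115430886 counts, which allows up to 0.026 CPM, while COX7B was at 68.1 TPM. This limit accounts for counting error alone, because the reads carried no molecular identifiers and need not be independent molecules. COX8C, another testis form, was listed at 0 in both of its rows, against 415 TPM for COX8A. No limit is given for COX8C, since 60.7% of its exon bases overlap UNC79 on the same strand and the treatment of shared reads is not given in the sources used here. The muscle form COX6A2 had between 6 and 13 counts a library, or 0.16% to 0.461% of the summed TPM of COX6A1 and COX6A2, and its log2 difference of -0.30 (standard error 0.43) was the largest negative value of complex IV. The testis form COX6B2 had 11 to 23 counts, or 0.244% to 0.437% of its pair with COX6B1. The muscle form COX7A1 had 2 to 6 counts, or 0.532% to 1.95% of its pair with COX7A2. NDUFA4L2, the form induced by low oxygen, had 8 to 10 counts, or 0.404% to 1.07% of its pair with NDUFA4. COX7A2L, which helps to join complexes into supercomplexes, was the exception at 62.7 TPM, or 28.7% ± 1.73 of its pair with COX7A2 in the control libraries and 28.7% ± 1.49 in the PRDM16 libraries (SD, n = 3 each). The group means of these shares differed by less than the larger SD of the groups. In complex III, UQCRHL took 3.48% ± 0.26 of its pair with UQCRH in the control libraries and 4.37% ± 0.492 in the PRDM16 libraries (SD, n = 3 each), a description without a test.

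Complex V had a summed level of 5884 ± 311 TPM in the control libraries and 5845 ± 259 TPM in the PRDM16 libraries (SD, n = 3 each), and 10 of its 18 tested subunits were higher and 8 lower. The 5 subunits of the F1 head and central stalk, which together make ATP, were all higher, with log2 fold changes between 0.13 and 0.22. Over all tested genes 51.1% were higher. The summed level of these 5 was 2146, 2145 and 2119 TPM in the control libraries and 2237, 2327 and 2315 TPM in the PRDM16 libraries, so every IR+PR-LV library was above every IR+NC-LV library. ATP5F1B alone took 1509 of the mean of 2137 TPM in the control libraries and 1603 of 2293 TPM in the PRDM16 libraries. Of the 8 subunits of the membrane part, 6 were lower, and the sum was 2016 ± 255 TPM against 1827 ± 94.2 TPM (SD, n = 3 each). The 4 subunits of the peripheral stalk, which holds the head in place, summed to 1701 ± 85.2 and 1718 ± 120 TPM. Among them ATP5PO, second in complex V at 752 TPM, had 181, 179 and 163 CPM against 161, 183 and 180.2 CPM, with overlapping groups. Only 32.9% of its 100-base stretches occur in no other annotated gene. No test was made of these sums or of their difference.

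Within the F1 head, ATP5F1A, the alpha subunit (chr18:46080248-46104227, minus strand), had 277, 264 and 276 CPM in the control libraries and 303, 300 and 305 CPM in the PRDM16 libraries. The groups did not overlap, and the log2 fold change was 0.15 (standard error 0.05, unadjusted p = 0.0188, adjusted p = 0.389 in edgeR's quasi-likelihood test). ATP5F1B, the beta subunit (chr12:56638175-56645984, minus strand), had 823, 828 and 758 CPM in the control libraries and 866, 890 and 872 CPM in the PRDM16 libraries. Its groups did not overlap either, and its log2 difference was 0.13 (standard error 0.06, adjusted p = 0.488 in the same test). The central stalk subunits overlapped between the groups. ATP5F1C was at 0.17 on the log2 scale (standard error 0.10) and ATP5F1D at 0.22 (standard error 0.19), the latter carried by IR+PR-LV replicate 1 (31.1 CPM, against 20.7 and 17.3 CPM in replicates 2 and 3). Without that library the value for ATP5F1D was -0.0409. ATP5F1E, the epsilon subunit, was listed at only 3.98 TPM, and 32.7% of its exon bases overlap TUBB1 on the other strand and 8.06% the readthrough entry SLMO2-ATP5E. Whether the counting used the strand is not given in the sources used here, so its level is uncertain. ATP5ME, the e subunit of the membrane part, had 13.5, 15.7 and 9.0 CPM against 11.7, 8.44 and 7.23 CPM, with overlapping groups and a log2 fold change of -0.49 (standard error 0.23).

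7 of the 90 subunits are listed in more than 1 row, because the annotation holds copies on alternate scaffolds. These are ATP5IF1, COX8C, NDUFA3, NDUFA6, NDUFS1, NDUFS3 and UQCRC2, and 5 of them were tested. Each was described by the row with the most counts. Their spread was wider than that of the other subunits, with a median within-group SD of log2 CPM of 1.01 (0.6 to 1.51), against 0.155 (0.0244 to 0.451) for the 76 tested subunits listed once and 0.136 for all tested genes. NDUFA6 had 55, 54 and 49 counts in the control libraries and 391, 117 and 76 in the PRDM16 libraries, and its log2 difference of 1.74 (standard error 0.64, adjusted p = 0.398 in edgeR's quasi-likelihood test) was 0.425 without IR+PR-LV replicate 1. ATP5IF1, the inhibitor that blocks the F1 head when the proton gradient is lost, had 61, 62 and 595 counts in the control libraries and 67, 114 and 104 in the PRDM16 libraries. Its log2 difference of -1.82 (standard error 0.88) was 0.478 without IR+NC-LV replicate 3. NDUFS1, the iron-sulfur subunit of the NADH-oxidizing module of complex I, had 16.04, 9.64 and 35.6 CPM in the control libraries and 14.4, 45.2 and 57.9 CPM in the PRDM16 libraries. UQCRC2, a core protein of complex III, had 49, 68 and 63 counts in the control libraries and 68, 281 and 68 in the PRDM16 libraries. Its log2 difference of 0.77 (standard error 0.38, adjusted p = 0.507 in edgeR's quasi-likelihood test) was the largest positive value of complex III and was 0.13 without IR+PR-LV replicate 2. The other tested row of UQCRC2, on the assembled chromosomes, had 56, 53 and 41 counts against 68, 96 and 94. In CPM it had 3.34, 2.52 and 2.95 against 4.05, 3.43 and 5.11. That row did not overlap between the groups, as was so for 17% of all tested genes. NDUFS3, a core subunit of complex I, had 44, 109 and 41 counts in the control libraries and 39, 358 and 65 with the PRDM16 lentivirus. It was thus high in the same library as the UQCRC2 row with the most counts. The highest library was IR+PR-LV replicate 1 for NDUFA6 and IR+NC-LV replicate 3 for ATP5IF1, while the NDUFS1 values were spread over both groups. How reads that match several copies were counted is not given in the sources used here, and the part this had in the spread was not tested. The levels of these 7 subunits are therefore uncertain, and NDUFA3, with 10 listed rows, had 64 counts in all.

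**Figure D3:**
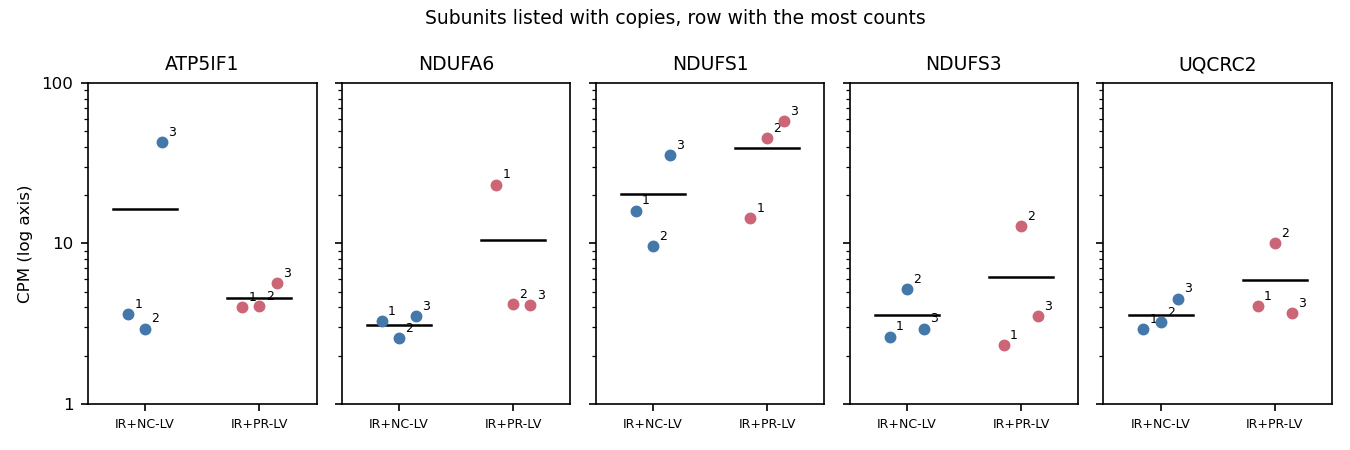
CPM on a log axis in each library for the 5 tested subunits with listed copies, by group, with the library number beside each point and the group mean as a bar. ATP5IF1 is high in IR+NC-LV library 3 and NDUFA6 in IR+PR-LV library 1, while the other libraries of those genes lie close together.

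1 library shifted the subunits together. In IR+NC-LV replicate 3, which was also the shallowest, 71 of the 76 subunits listed once were below the mean of both groups, with a median deviation of -0.173 on the log2 scale. In IR+NC-LV replicates 1 and 2 the median deviations were 0.083 and 0.113, and for IR+PR-LV they lay between -0.00609 and 0.0274. The shift was present in every complex, from -0.134 for complex I to -0.226 for complex III. All tested genes together deviated by -0.00343 in that library, and the 717 tested genes with under 1000 exon bases by -0.0998. The subunits are short, with a median row length of 1299 bases against 4154 for all tested genes, and their direction moved with length. Of the 32 subunits under 1000 bases, IR+PR-LV was higher for 7 and lower for 25, with a median log2 fold change of -0.0834, against -0.0493 for all tested genes of that length. Of the 44 subunits of 1000 bases or more, 25 were higher and 19 lower, with a median of 0.0279, against 0.00593. Over the 76 subunits, which share the same 6 libraries, Spearman's rho between length and log2 fold change was 0.411, and over all tested genes it was -0.026. With each library's trend with length removed, 43 of the 81 subunits were higher and 38 lower. The part of length or of this library in the differences between the groups was not tested.

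**Figure D4:**
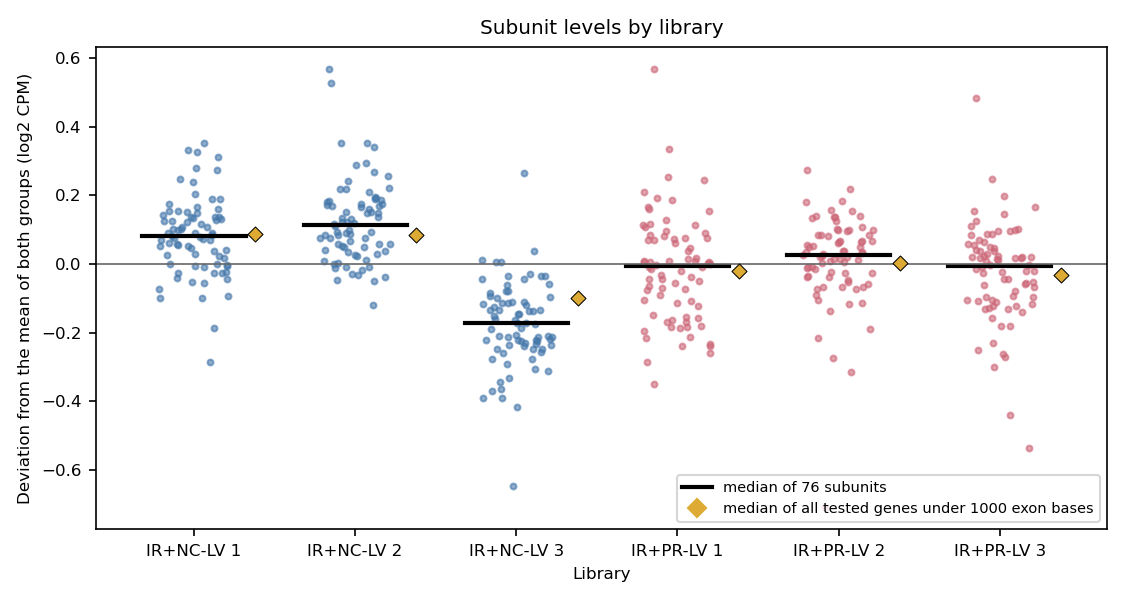
Each point is 1 of the 76 tested subunits listed once, with its deviation from the mean of both groups in log2 CPM, by library. The black bar is their median and the yellow diamond the median of all tested genes with under 1000 exon bases. IR+NC-LV 3 lies lowest at -0.173, IR+NC-LV 1 and 2 lie above 0, and the IR+PR-LV libraries lie near 0.

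Genes that build the complexes or serve them, and CYC1, were examined from lists drawn up by function. In every list 0 genes passed the threshold in edgeR's quasi-likelihood test, and the counts at an unadjusted p-value under 0.05 follow, a level that 10.5% of all tested genes reached (4.55% higher and 5.97% lower). Of 19 assembly factors of complex I, 12 were higher and 7 lower, and TIMMDC1, which builds the membrane arm, had the only such p-value (log2 fold change 0.18, standard error 0.08). Of 11 assembly factors of complexes II and III, SDHAF1, which inserts iron-sulfur clusters into SDHB, was higher at 0.34 (standard error 0.14), and UQCC2 lower at -0.22 (standard error 0.09). Of 26 tested assembly factors of complex IV, 14 were higher and 12 lower. LRPPRC, which stabilizes mitochondrial messenger RNAs, had 289, 289 and 270 CPM in the control libraries and 315, 324 and 325 CPM in the PRDM16 libraries (log2 fold change 0.18, standard error 0.06, adjusted p = 0.328 in the same test). SCO1, a copper chaperone, was higher by the same log2 fold change of 0.18 (standard error 0.06). The 4 tested assembly factors of complex V had 0 at that level. Of 15 genes of cytochromes and ubiquinone synthesis, COQ3 was higher (0.23, standard error 0.09) and COQ8B lower (-0.50, standard error 0.16), while cytochrome c1 (CYC1) was at 0.03 (standard error 0.09) and cytochrome c (CYCS) at 0.13 (standard error 0.12). The 7 tested enzymes that reduce ubiquinone from other substrates had 0 at that level.

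Among the 15 tested regulators of respiratory chain genes, 10 were higher and 5 lower. PPARGC1A, the coactivator that drives mitochondrial biogenesis together with NRF1, GABPA and ESRRA, had 19.6, 16 and 22.2 CPM in the control libraries and 11.9, 11.4 and 10.5 CPM in the PRDM16 libraries. Every IR+PR-LV library was below every IR+NC-LV library. The log2 fold change was -0.77 (standard error 0.13, unadjusted p = 0.000211, adjusted p = 0.0799 in edgeR's quasi-likelihood test), which does not pass the threshold. Over the other settings its adjusted p-value lay between 0.000131 (no filter on low counts) and 0.28 (without IR+PR-LV replicate 2), with DESeq2 at 0.00037 and 0.0413 without IR+NC-LV replicate 2, and the log2 fold change between -0.889 and -0.654. The factors with which it acts had log2 fold changes near 0, with NRF1 at -0.07 (standard error 0.09), GABPA at 0.10 (standard error 0.07) and ESRRA at 0.03 (standard error 0.14). YY1 had 158, 159 and 150 CPM against 179, 170 and 172 CPM (0.16, standard error 0.06, adjusted p = 0.397 in the same test). TFAM, which packs and transcribes mitochondrial DNA, had 180, 176 and 180 CPM in the control libraries and 185, 196 and 210 CPM in the PRDM16 libraries (0.14, standard error 0.06, adjusted p = 0.482). The YY1 and TFAM values did not overlap between the groups, and neither passed the threshold. With PPARGC1A these were 3 of the 15 tested regulators without overlap, against 17% of all tested genes.

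**Figure D5:**
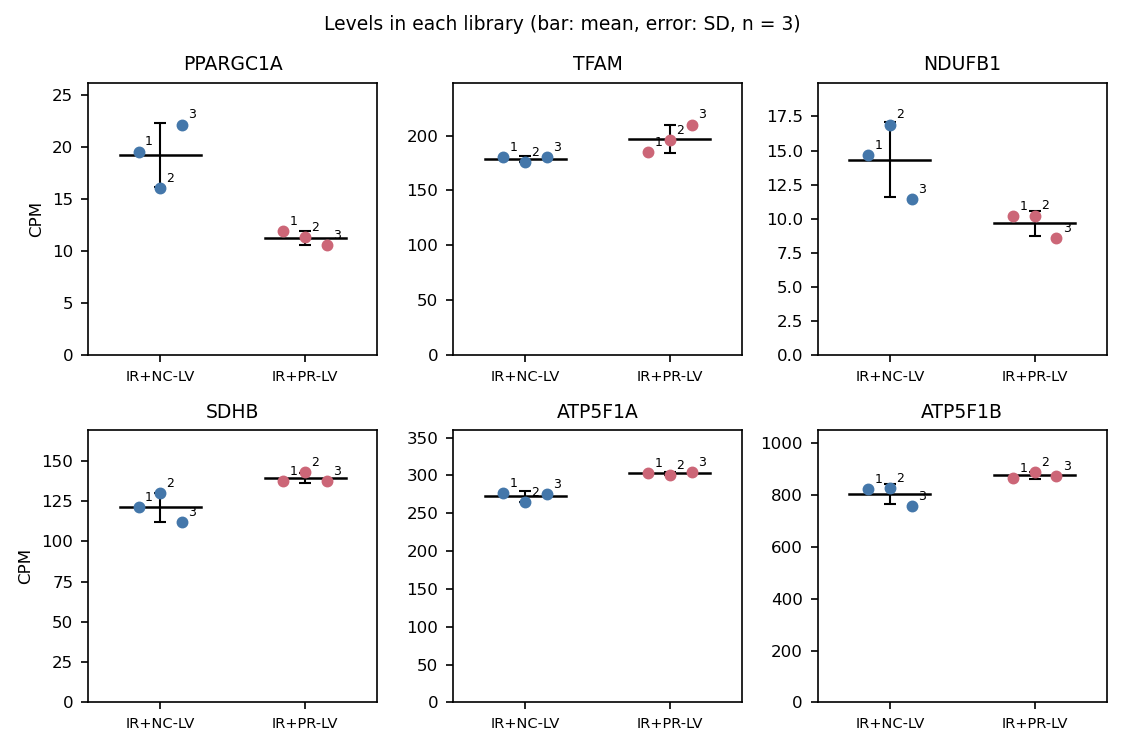
CPM in each library for PPARGC1A, TFAM, NDUFB1, SDHB, ATP5F1A and ATP5F1B by group, with the library number beside each point, the mean as a bar and the SD as an error bar (n = 3). The groups do not overlap in any of the 6 panels, as was so for 7 of the 81 tested subunits and 17% of all tested genes. IR+PR-LV is lower for PPARGC1A and NDUFB1 and higher for the other genes.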

How the data were processed

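Poly(A)-selected RNA of irradiated HK-2 cells (8 Gy, day 7) was sequenced from both ends. Per the labels, CASAVA, featureCounts 2.0.1, DESeq2 1.16.1 and hg38 were used, and the aligner and the strand setting are not given in the sources used here. Low-quality and adapter reads had been filtered out by the authors, who deposited raw counts per gene and the TPM computed from the same counts and the exon bases of each row.

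The counts were compared with edgeR 4.0.16 in R 4.3.3 (filterByExpr with a minimum count of 10, TMM, glmQLFit and glmQLFTest without covariates), with Benjamini-Hochberg adjustment over all 15340 rows tested. Intervals at 95% used 9.17 degrees of freedom. A gene with several rows was represented by the row with the most counts. Summed TPM received no test, and the sums over parts of complexes I and V were added to the planned sums per complex. Alternatives were RLE and upper-quartile normalization, other filters, DESeq2 1.42.0, a replicate block, each library left out, summed copies and removal of length trends.

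The members and lists were chosen with earlier results of these data known. The rule for named genes took, per complex, the 2 highest and the lowest tested subunits by TPM, those with the largest positive and negative log2 fold change, subunits past the threshold or with the lowest unadjusted p-values, and the isoform pairs. From each list it took up to 2 genes with an unadjusted p-value under 0.05, and PPARGC1A, NRF1, GABPA, ESRRA and TFAM. NDUFA10, UQCRFS1, UQCRB, ATP5F1C, ATP5ME, NDUFS3, NDUFA3, CYC1 and CYCS were named after their values were seen.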

Additional observations from a re-analysis of the deposited data

How the results depend on the processing

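The number of genes past the threshold, 10, was 342 with no filter on low counts, 3 with the replicate block, 168 with DESeq2 and between 1 and 28 with 1 library left out. The number of subunits past it was 4 with no filter and 0 in every other fit. The subunits at an unadjusted p-value under 0.05, 4, numbered 13 with no filter, 7 with the replicate block, 7 with DESeq2 and 2 to 26 with 1 library left out. The lowest number came from leaving out IR+PR-LV replicate 2 and the highest from leaving out IR+NC-LV replicate 3. For all genes, 1 passed without replicate 1 of IR+NC-LV and 1 when IR+PR-LV replicate 3 was left out, 28 passed without replicate 2 of IR+NC-LV, and 16 when its replicate 3 was dropped. With 1 library left out, the median log2 fold change of complex III ranged from -0.0868 to 0.0653, and that of all subunits from -0.0966 to 0.0231. On the log2 scale, SDHA ranged from -0.0702 to 0.0319, COX4I1 from -0.0569 to 0.154, COX6A2 from -0.411 to 0.0708, ATP5F1D from -0.0409 to 0.389, ATP5IF1 from -2.34 to 0.478 and ESRRA from -0.119 to 0.121, each through 0, and SDHA was at 0.00323 with the length trend removed. The log2 ratio of the summed TPM was 0.115 for complex II, -0.0344 for complex III and -0.00961 for complex V. With the median TPM in place of the sum these were 0.0335, -0.178 and -0.141, and complex II was at 0.0469 with the lengths of GENCODE, an alternative chosen after seeing the data. The cause of these differences was not tested. Correlations of the same-numbered deviations were -0.00884, 0.0514 and 0.0706, and those of differently numbered ones lay between -0.0971 and 0.0619. The deviations were taken from the means of groups of 3, so they cannot decide whether the replicate numbers pair the libraries. The replicate block changed no call of a subunit. Depth limited the lowest isoforms, since 3 counts correspond to between 0.105 and 0.224 CPM in a library.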
